A study of Mus musculus with 3 samples.

Results

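The genes described are 34 genes of the tricarboxylic acid (TCA) cycle, of the entry of pyruvate into it and of itaconate synthesis, out of 55536 annotated genes in the libraries. They were taken from a fixed list of symbols, and each of the 34 symbols matched 1 gene. They are Acod1, 19 cycle enzyme genes, 2 subunits of the mitochondrial pyruvate carrier, 4 further subunits of the pyruvate dehydrogenase complex, its 4 kinases, pyruvate carboxylase and 3 mitochondrial carriers of cycle intermediates. The cycle enzyme genes as counted here include those of the cytosolic Idh1 and Mdh1 and of the NADP-dependent mitochondrial Idh2. The libraries were made from total RNA, depleted of ribosomal RNA, of the cytosolic fraction of macrophages that were grown out of the bone marrow of C57BL/6J mice in culture (bone marrow-derived macrophages). All 3 libraries belong to 1 group: the cells received Lipid A, the endotoxin part that Toll-like receptor 4 binds, at 100 ng/ml for 12 hours, then spent 12 hours without it, and were stimulated again at 100 ng/ml for 25 minutes before 1 µg of RNA was taken into each library. The labels call them biological replicates 1, 2 and 3, give them the same donor entry and record neither sex nor age, so an SD here covers no more than how these 3 samples differ, and that difference may be technical. No library of untreated cells, of another time or of the nuclear fraction was analysed here, so the values are levels within 1 condition and no response to Lipid A was measured.

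Pyruvate enters mitochondria through a carrier made of Mpc1 and Mpc2 and is turned into acetyl-CoA by the pyruvate dehydrogenase complex, which the kinases Pdk1 to Pdk4 switch off and phosphatases switch on. Citrate synthase joins acetyl-CoA to oxaloacetate, citrate is rearranged by way of cis-aconitate to isocitrate, and the dehydrogenases and the ligase that follow bring the carbon back to oxaloacetate. Acod1 (also known as Irg1) takes cis-aconitate out of this path and makes itaconate, which inhibits succinate dehydrogenase, and macrophages are known for making large amounts of it after exposure to endotoxin.

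Total expected counts were 55517261, 21311556 and 45635014 in replicates 1, 2 and 3, so counting error was largest in replicate 2. All 8 macrophage markers had at least 1 TPM (transcripts per 1000000, a level per transcript length) in every library, with means between 47.2 and 3737 TPM. None of the 24 markers of other cell types (lymphocytes, neutrophils, dendritic cells, stroma, red cell precursors, mast cells and basophils) reached 1 TPM in all 3 libraries; 5 of them were at 0 in each, and they summed to between 0.62 and 0.75 TPM per library, against 4924 to 7591 TPM for the macrophage markers. The libraries differed in nuclear and mitochondrial RNA. The nuclear noncoding RNA Malat1 stood at 8329, 3480 and 1444 counts per 1000000 counts of nuclear protein-coding genes (protein-coding CPM) in replicates 1, 2 and 3, and the 13 protein-coding genes of the mitochondrial genome had median log2 ratios to the average of the other libraries of 0.76, 0.25 and -1.26. Nuclear protein-coding genes held 29.6%, 40.4% and 34.8% of all TPM, which sets the scale of TPM in each library.

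The promoters of Acod1 and of Sdhb, the 2 genes of the list with the highest levels, are shown because they differ in sequence makeup. Both are from RefSeq in mouse build GRCm38.p6, on the plus strand and written 5′ to 3′, from 250 bases before the RefSeq start to 15 bases after the start that GENCODE M21 gives. Capitals mark a CCAAT box on the other strand (ATTGG) and a TATAAA in Acod1, and in Sdhb 3 GC boxes on the other strand (CCGCCC), the first of which runs together with a match to the NF-kB consensus.
Acod1 promoter, chr14:103046762-103046991: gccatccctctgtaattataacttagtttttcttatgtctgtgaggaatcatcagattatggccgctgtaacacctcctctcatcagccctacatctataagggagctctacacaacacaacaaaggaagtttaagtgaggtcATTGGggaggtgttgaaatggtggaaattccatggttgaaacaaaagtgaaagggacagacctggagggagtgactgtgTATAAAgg
Sdhb promoter, chr4:140961021-140961217: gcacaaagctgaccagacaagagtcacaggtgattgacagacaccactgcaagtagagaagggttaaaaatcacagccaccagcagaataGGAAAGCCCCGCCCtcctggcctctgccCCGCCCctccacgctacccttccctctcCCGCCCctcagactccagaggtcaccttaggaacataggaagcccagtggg
Counted from the RefSeq start, the TATAAA of Acod1 begins at -28 and its CCAAT box at -107, and the GC boxes of Sdhb begin at -152, -132 and -104. The GENCODE start of Acod1 lies 35 bases before the RefSeq start, so the TATAAA lies before one annotated start and after the other.

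RefSeq gave 42 promoters for 32 of the 34 genes, and Idh3a and Sdhc had none in the table. Over the 250 bases before the start, TATAAA on the coding strand was found in 1 of the 42 windows, that of Acod1, and in 7.59% of all 32851 promoters. The GC box GGGCGG on either strand was found in 24 of the 42 windows, against 32.7% of all promoters, and not in Acod1. The CCAAT box on either strand was found in 24 windows too, Acod1 among them, against 33.8% of all promoters. The window of Acod1 held 44.4% G and C and 2 CpG dinucleotides, and that of Sdhb 59.2% and 9. The median over the 42 windows was 61.4% and 18 CpG, with a range of 2 to 35 CpG, against medians of 52.4% and 6 CpG over all promoters. 2 of the 42 windows held 2 or fewer CpG, as did 29.0% of all promoters. The NF-kB consensus, searched on both strands, was found in Ogdh, Sdhb, Slc25a1 and Slc25a10 (3.90% of all promoters), the consensus of the factor NRF1 in Sdha, Sdhd and Sucla2 (3.74%), the AP-1 motif TGANTCA in Slc25a11 (6.75%) and the interferon-stimulated response element in Suclg2 (2.98%). None of the 42 windows held AAGGTCA, a binding motif of estrogen-related receptors, which 4.08% of all promoters held. These are matches of letters in a window and were not measured as binding.

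In every library, 32 of the 34 genes reached 1 TPM, against 42.1% of the 22015 nuclear protein-coding genes. The exceptions were the kinase gene Pdk4 and the carboxylase gene Pcx. The median over the 34 genes was 23.4 ± 3.49 TPM (SD, n = 3), against 9.90 ± 1.46 TPM over all nuclear protein-coding genes that passed 1 TPM in every library. Of the genes that passed, 24 members were above the median by mean TPM, and 2, Acod1 and Sdhb, were in the top 10%. Levels of neighbours in the order by mean TPM were mostly close: in 12 of 33 neighbouring pairs the higher gene was higher in every library, and in the other 21 the order turned in at least 1 library.

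**Figure D1:**
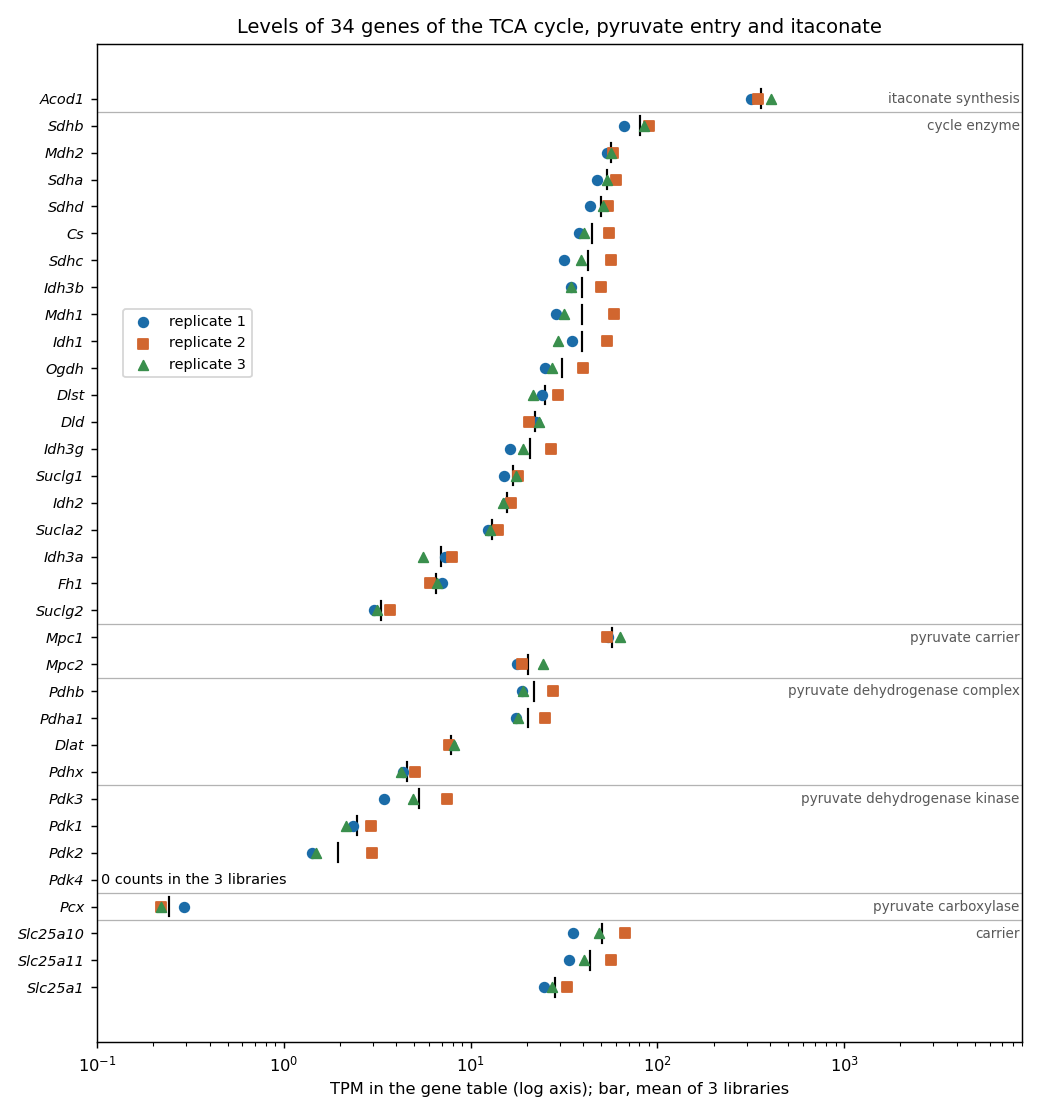
TPM of the 34 genes in the gene table on a log axis, grouped by role, with 1 symbol per library (circle, square and triangle for replicates 1, 2 and 3) and a bar at the mean. Acod1 sits between 318 and 407 TPM, right of all other genes shown, while Pcx lies below 1 TPM and Pdk4 had no count.

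Acod1 (ENSMUSG00000022126.6, chromosome 14, 103046977 to 103056573, plus strand, in mm10) was the most abundant of the 34 genes. It measured 318, 345 and 407 TPM in replicates 1, 2 and 3, which is 357 ± 45.4 TPM (SD, n = 3) from 69069, 22139 and 63906 expected counts. It ranked 90 among the 9275 nuclear protein-coding genes that passed 1 TPM in every library. Replicate 3 was the highest on the TPM scale and in protein-coding CPM, where the values were 1441, 1131 and 1576. The replicate that was lowest differed between the scales: replicate 1 in TPM and replicate 2 in protein-coding CPM. Acod1 made up 29.2 ± 3.83% of the summed TPM of the 34 genes, and its TPM was 0.598 ± 0.115 times the summed TPM of the 19 cycle enzyme genes. Its level was 4.78, 3.84 and 4.79 times that of the next gene in each library. In bulk RNA, more RNA per cell and more cells that express a gene cannot be told apart.

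Set against the genes whose products act beside it, Acod1 was higher in every library. Against citrate synthase, Cs, the difference was 2.98 ± 0.33 in log2(TPM + 1) (SD, n = 3), or 8.34, 6.300 and 10.001 times in the 3 libraries. Against the carrier Slc25a1, which exports citrate from mitochondria, the difference was 3.61 ± 0.25. Aco1, a cytosolic enzyme that doubles as an iron-sensing RNA-binding protein, is not one of the 34 and measured 10.6, 13.8 and 9.04 TPM, and the difference from it was 4.89 ± 0.41. These 3 differences are larger than the spread of each between libraries.

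For the enzymes that follow in the cycle, and for the NADP-dependent isocitrate dehydrogenases beside it, the order was the same. Against the median of the 3 subunit genes of the NAD-dependent isocitrate dehydrogenase (Idh3a, Idh3b and Idh3g), Acod1 was higher by 4.06 ± 0.38. Against the NADP-dependent enzymes it was higher by 3.19 ± 0.54 for the cytosolic Idh1 and by 4.42 ± 0.22 for the mitochondrial Idh2. The smallest of the 8 differences of Acod1 given here was that from the median of the 4 succinate dehydrogenase subunit genes, the enzyme that itaconate inhibits, at 2.75 ± 0.19, or 7.01, 5.94 and 7.72 times. Against the median of all 19 cycle enzyme genes it was 3.52 ± 0.40, or 12.8, 8.603 and 14.9 times.

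Over the 22 differences between genes that were computed, 20 had the same sign in all 3 libraries and gave p = 0.25 in a two-sided exact sign-flip permutation test over the 3 libraries, which is the smallest p that 3 libraries allow, and an adjusted p of 0.275 (Benjamini-Hochberg over the 22). The other 2, Mdh1 against Mdh2 and Pdk1 against Pdk2, gave p = 0.5 in the same exact test. No difference could pass 0.05 in this design, so each is given as a size with its spread and the number of libraries that share its sign.

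**Figure D2:**
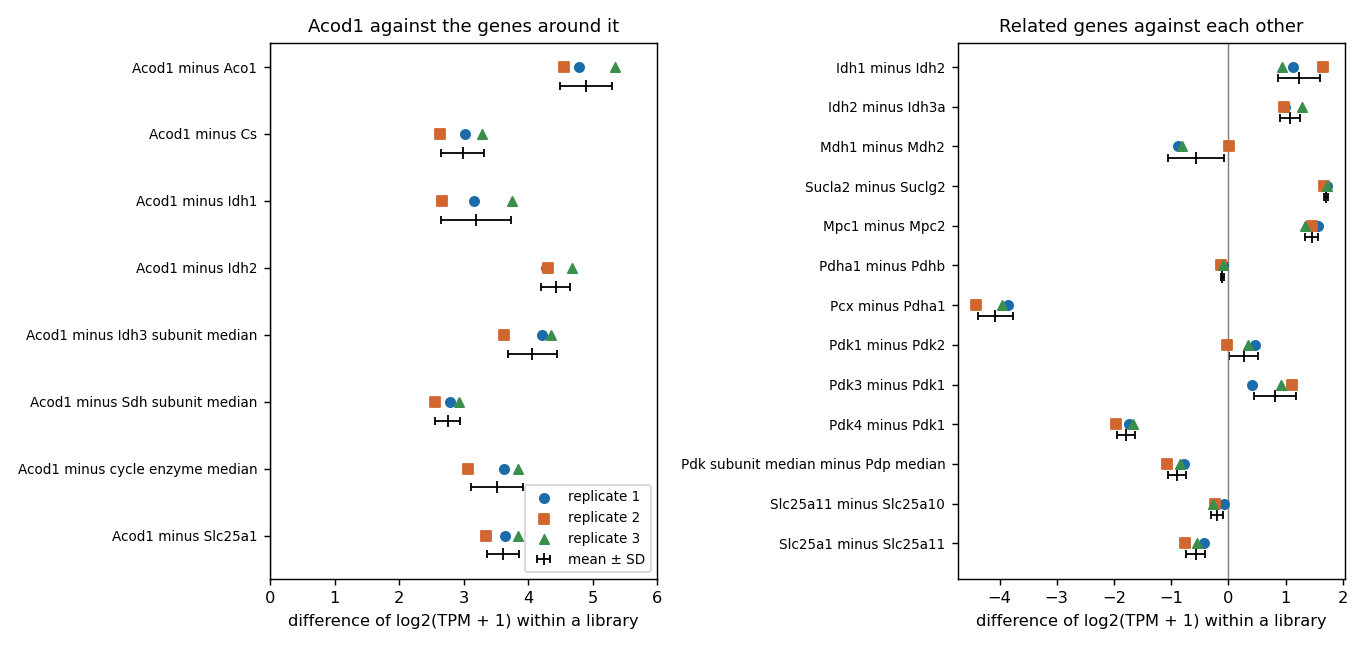
Differences of log2(TPM + 1) between 2 genes, or between a gene and a median of genes, within each library; symbols are the 3 libraries and the bars under them mean ± SD. On the left, the 8 differences of Acod1 lie between 2.55 and 5.34 in every library, and on the right the symbols of Mdh1 minus Mdh2 and of Pdk1 minus Pdk2 fall on both sides of 0.

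The carrier that brings pyruvate into mitochondria was unevenly represented. Mpc1 measured 54.5, 53.9 and 62.7 TPM, and Mpc2, the other subunit of the same carrier, 17.8, 18.9 and 24.3 TPM. Mpc1 was higher by 1.45 ± 0.12 in log2(TPM + 1) in 3 of 3 libraries, and the ranges of both genes did not overlap. Both were highest in replicate 3.

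The subunits of the pyruvate dehydrogenase complex spanned 5.35 ± 0.22 times between the highest and the lowest in a library. Pdha1 and Pdhb encode the alpha and beta subunits of its first enzyme, E1, and were nearly level. Pdha1 measured 17.6, 25.1 and 18.0 TPM and Pdhb 18.9, 27.7 and 19.2 TPM, a difference of -0.11 ± 0.03 with Pdhb higher in 3 of 3 libraries. With counts over 1 fixed transcript length it was -0.012 ± 0.017 and no longer had 1 sign in the 3 libraries. Dlat, the acetyltransferase that forms the core (E2), was lower, at 7.83, 7.69 and 8.13 TPM, and Pdhx, which anchors E3 to the core, was the lowest in each library, at 4.36, 5.01 and 4.26 TPM. Dld, the E3 enzyme, measured 22.3, 20.6 and 23.1 TPM and also serves the oxoglutarate dehydrogenase complex. A processed copy of Pdhb, Gm6123, is 97.0% identical over 71.2% of its length and held counts equal to 0.171% of those of Pdhb; no other of the 34 genes had an annotated copy at 95% identity over 50% of its length.

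Of the 4 kinases that inactivate this complex, Pdk3 was the highest in every library of the gene table. It measured 3.43, 7.47 and 4.94 TPM, above Pdk1 by 0.81 ± 0.36 in log2(TPM + 1) in 3 of 3 libraries. In the table made from the reads this order turned in replicate 1, where Pdk1 had 2.61 and Pdk3 2.30 TPM. Pdk1 measured 2.34, 2.91 and 2.16 TPM and Pdk2 1.41, 2.96 and 1.49 TPM. Pdk1 was above Pdk2 in replicates 1 and 3 and just below it in replicate 2, and their difference of 0.27 ± 0.25 was about as large as its spread. Pdk4, the isozyme known for its induction by fasting and fatty acids, had no expected count in any library. In the gene table, 3 counts were taken as the limit that a count of 0 allows in each library, which covers counting error only. On this limit Pdk1 was at least 89.5-fold, 32.7-fold and 60.2-fold higher than Pdk4, and Pdk3 at least 131-fold, 84.0-fold and 138-fold higher. The upper bounds that the gene table itself gives for the TPM of Pdk4 were above this limit, at 0.220, 0.758 and 0.279. On those bounds these folds do not hold, though Pdk1 and Pdk3 still lay above them in each library. The deposited transcript table made from the reads assigned 16 estimated counts to Pdk4 in replicate 1. There Pdk4 had 0.033 TPM, beside 2.61 for Pdk1 and 2.30 for Pdk3, so the bounds of replicate 1 do not hold in that table.

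The phosphatases that reactivate the complex are not among the 34. Pdp1, the calcium-stimulated catalytic subunit, measured 9.24, 13.2 and 11.9 TPM, Pdp2, the other catalytic subunit, 3.85, 5.38 and 4.04 TPM, and the regulatory subunit Pdpr 3.69, 7.30 and 3.56 TPM. The median of the 4 kinases lay below the median of these 3 by 0.90 ± 0.16 in log2(TPM + 1), in 3 of 3 libraries. The median of the kinases includes Pdk4 at 0.

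Pyruvate carboxylase, which makes oxaloacetate from pyruvate and so refills the cycle, was the lowest of the 33 genes with counts in the gene table. Pcx measured 0.29, 0.22 and 0.22 TPM from 89, 23 and 56 expected counts, above the limit of 3 counts in each library. Pdha1 was 60.6, 114 and 81.8 times as high as Pcx in TPM. Their difference in log2(TPM + 1), where the pseudocount understates it, was 4.08 ± 0.30 with Pdha1 higher in 3 of 3 libraries. The gene table's bounds for Pcx were 0.330 to 1.05, 0.389 to 2.83 and 0.285 to 1.12 TPM, above the values used. In the table made from the reads Pcx had 1.59 TPM in replicate 1, beside 11.5 for Pdha1 and 0.952 for Pdk2. In replicates 2 and 3 it had 0.125 and 0.0458 TPM there, beside 12.7 and 3.97 for Pdha1.

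Of the cycle enzymes, the 4 succinate dehydrogenase subunits, the complex that links the cycle to the respiratory chain, were all among the 6 highest of the 19 genes by mean TPM. Sdhb, the iron-sulfur subunit, measured 66.5, 90 and 84.9 TPM and was the highest of the 34 genes after Acod1 in every library. Sdha, the flavoprotein subunit, measured 47.3, 59.7 and 53.9 TPM. The membrane anchors Sdhc and Sdhd measured 31.6, 56.7 and 39.0 TPM and 43.4, 54.6 and 51.4 TPM. The highest of the 4 was 1.98 ± 0.29 times the lowest, the second smallest mean span of the 6 complexes compared. The smallest was that of the oxoglutarate dehydrogenase complex at 1.44 ± 0.45 times. In replicate 2 this order turned, with succinate dehydrogenase at 1.65 and the oxoglutarate dehydrogenase complex at 1.95 times. In the latter Ogdh, its first enzyme, measured 24.9, 40.1 and 27.3 TPM and Dlst, its core, 23.96, 29.4 and 21.7 TPM.

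Citrate synthase, Cs, measured 38.1, 54.8 and 40.7 TPM. The NAD-dependent isocitrate dehydrogenase, taken as the cycle's own enzyme for this step, had the widest mean span of subunits of the 6 complexes, 5.75 ± 0.86 times, though not in replicate 1. Its catalytic subunit Idh3a measured 7.25, 7.94 and 5.54 TPM, below its partners Idh3b at 34.5, 49.97 and 34.3 TPM and Idh3g at 16.3, 27.0 and 18.98 TPM, and the ranges of the 3 genes did not overlap. The NADP enzymes were higher than Idh3a: Idh2 measured 15.4, 16.4 and 14.9 TPM, a difference of 1.08 ± 0.17. Idh1, the cytosolic enzyme, measured 34.8, 53.8 and 29.4 TPM and was above Idh2 by 1.24 ± 0.37 in 3 of 3 libraries.

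Succinyl-CoA ligase pairs the alpha subunit Suclg1 with 1 of 2 beta subunits, which give the enzyme its nucleotide. Suclg1 measured 15.2, 18.0 and 17.6 TPM. Sucla2, the ADP-forming beta subunit, measured 12.4, 14.0 and 12.6 TPM, and Suclg2, the GDP-forming one, 3.04, 3.69 and 3.14 TPM. Sucla2 was higher by 1.71 ± 0.03 in log2(TPM + 1) in 3 of 3 libraries. This was the second steadiest of the 22 differences in the gene table, after that of Pdha1 and Pdhb. In the table made from the reads, without rescaling, Sucla2 was higher by 1.16 ± 0.19.

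Fumarase, Fh1, measured 7.01, 6.03 and 6.63 TPM, the lowest mean of the 19 cycle enzyme genes after Suclg2, and its range overlapped that of Idh3a. The mitochondrial malate dehydrogenase Mdh2 was steady in TPM summed over its transcripts, at 53.8, 58.1 and 56.4. In protein-coding CPM it stood at 115, 95.3 and 102. The shares of its transcripts, given below, differed between libraries. The cytosolic Mdh1, part of the malate-aspartate shuttle, measured 28.8, 58.2 and 31.5 TPM, so that it was lower than Mdh2 in replicates 1 and 3 and level with it in replicate 2. The difference of -0.57 ± 0.49 rested on replicates 1 and 3, and without replicate 2 it was -0.85. With counts over 1 fixed transcript length it was -0.80 ± 0.16 and had 1 sign in the 3 libraries.

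The 3 carriers that move cycle intermediates across the inner mitochondrial membrane lay close to the cycle enzymes. Slc25a10, the dicarboxylate carrier, measured 35.3, 66.8 and 48.8 TPM. Slc25a11, the oxoglutarate carrier, measured 33.5, 56.3 and 40.2 TPM, below Slc25a10 by 0.20 ± 0.11 in 3 of 3 libraries. Slc25a1, the citrate carrier, measured 24.6, 33.0 and 27.3 TPM and was below Slc25a11 by 0.57 ± 0.17 in 3 of 3 libraries. Within a library the order was therefore the same each time, while the ranges of Slc25a10 and Slc25a11 over libraries overlapped.

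A further list of 38 related genes, of which phosphatases, citrate and glutamine enzymes, assembly factors and paralogs are examples, had 26 genes with at least 1 TPM in all 3 libraries and a median of 3.69 ± 0.741 TPM. The lactate dehydrogenase gene Ldha, which competes for pyruvate, was its highest at 108, 151 and 135 TPM. Glud1, the glutamate dehydrogenase that feeds oxoglutarate into the cycle, followed at 40.7, 70.7 and 43.6 TPM. Acly, which splits exported citrate in the cytosol, was also among its 4 highest, at 28.6, 40.8 and 27.3 TPM. Without a count in any library were 3 of the 38: Me3, the succinate receptor gene Sucnr1 and the testis paralog Pdha2.

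Spread between the libraries was described over the 32 genes that passed 1 TPM. The highest library was 1.24 times the lowest at the median in protein-coding CPM, against 1.26 over the 9275 nuclear protein-coding genes that passed, and 1.36 at the median in TPM. In TPM, 26 of the 32 genes were highest in replicate 2, as were 75.2% of all nuclear protein-coding genes that passed, and replicate 2 is the library with the largest share of TPM on such genes. In protein-coding CPM 15 of the 32 were highest in replicate 1, 12 in replicate 2 and 5 in replicate 3, beside 47.5%, 30.1% and 22.4% of all genes that passed. The highest library was over 1.5 times the lowest for 4 of the 32 in protein-coding CPM, against 17.5% of all genes that passed, and for 9 of the 32 in TPM, against 38.3%.

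Mdh1 and Sdhc were picked out after their values were seen because the 2 scales part most for them. In protein-coding CPM Mdh1 stood at 85.8, 89.4 and 82.9 and Sdhc at 88.4, 83.2 and 90.7, level over the libraries, while both were highest in replicate 2 in TPM. The effective length the authors' table gave to Mdh1 was 1579, 1121 and 1642 bases in replicates 1, 2 and 3, and that of Sdhc 1483, 1071 and 1454 bases, so the TPM of replicate 2 was divided by a smaller length.

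**Figure D3:**
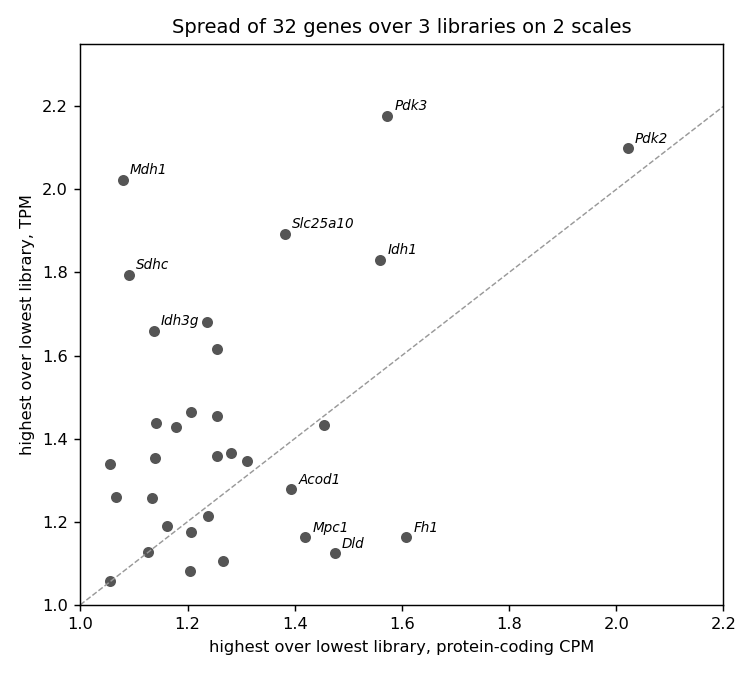
Highest over lowest library for the 32 genes with at least 1 TPM in every library, in protein-coding CPM on the horizontal axis and in TPM on the vertical axis, with equality dashed. Mdh1 and Sdhc lie far above the line, with ratios of 1.08 and 1.09 in protein-coding CPM and 2.02 and 1.79 in TPM, and Pdk2 is the farthest right at 2.02.

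The widest ranges of protein-coding CPM among the 32 were those of Pdk2, Fh1 and Pdk3. Pdk2 stood at 5.13, 8.17 and 4.04 from 246, 160 and 164 expected counts, highest in replicate 2. Fh1 stood at 18.7, 11.6 and 17.0 from 898, 228 and 689 counts, lowest in replicate 2. Pdk3 stood at 12.2, 19.3 and 15.1 from 587, 377 and 614 counts. The biological coefficient of variation, which is the spread between libraries beyond counting error, was 0.306 for Pdk2, 0.20 for Fh1 and 0.211 for Pdk3. It was 0.185 for Acod1. Over the 33 genes kept its median was 0.139, with a range of 0.120 for Slc25a1 to 0.355 for Pcx, against 0.166 over 11149 protein-coding genes kept, and 25 of the 33 were below that median. The coefficient depends on the count of a gene. Among genes with at least 200 counts on average the medians were 0.139 over 31 members and 0.153 over 8928 protein-coding genes.

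Each library was set against the average of the other 2 in protein-coding CPM, with no test since 1 library stands on a side. The medians of the 32 genes were 0.07, -0.06 and -0.08 on the log2 scale for replicates 1, 2 and 3, beside 0.09, -0.02 and -0.09 over 9604 protein-coding genes whose mean reached 1 TPM. The signs of the members' medians in replicates 1 and 3 turned with TMM and with DESeq2 scaling, as did those of all genes. In replicate 1 none of the 32 passed 1.5-fold, against 4.24% of all genes higher and 1.6% lower. In replicate 2 Pdk2 was higher (1.31% of all genes) and Fh1 lower (5.5%). In replicate 3 Pdk2 was lower (4.05%) and none was higher (2.68%). The call of Fh1 ended with DESeq2 scaling, where its log2 ratio was -0.58 against a limit of 1.5-fold, and Pdk3 passed lower in replicate 1 with TMM and DESeq2 scaling (-0.60 and -0.63). Against replicate 1 alone, the log2 ratio of Pdk2 in replicate 3 was -0.34, so its lower call there rested on replicate 2. Acod1 had log2 ratios of 0.09, -0.42 and 0.29; the first was -0.03 with TMM and -0.07 with DESeq2 scaling. Malat1, Neat1 and the mitochondrial genes differed between the same libraries, and their part in these ratios was not tested.

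**Figure D4:**
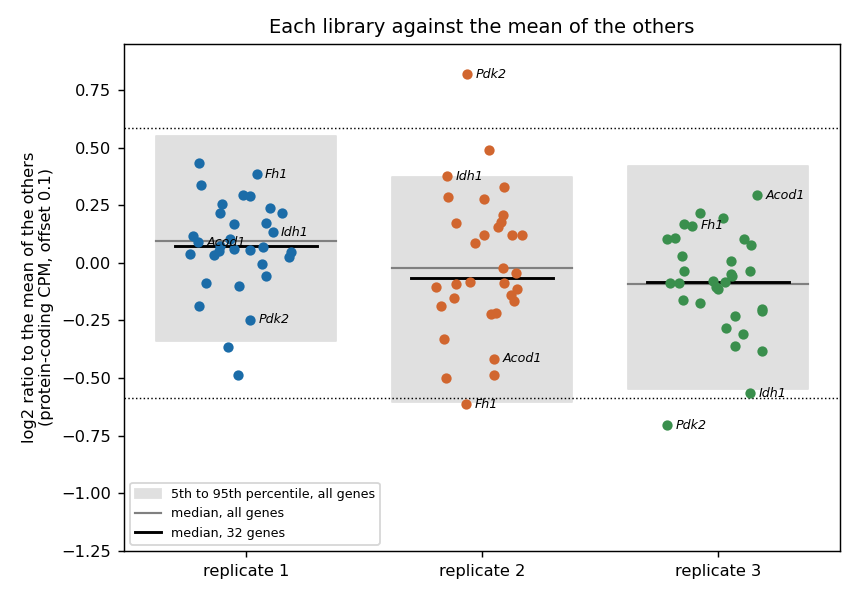
Log2 ratio in protein-coding CPM between a library and the average of the other 2 for the 32 genes (points), with their median (black line), the median of all protein-coding genes (grey line) and the 5th to 95th percentile of all genes (grey box); dotted lines mark 1.5-fold. Pdk2 is above the upper dotted line in replicate 2 and below the lower one in replicate 3, and Fh1 is below the lower one in replicate 2.

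The 34 genes have 185 annotated transcripts, 1 each for Acod1 and Sdhd. Shares are of a gene's TPM summed over the 3 libraries. In the table made from the reads, nuclear protein-coding genes held 20.5%, 21.4% and 7.95% of TPM in replicates 1, 2 and 3. Replicate 3 therefore weighs least in most of the shares from that table. In the transcript table that goes with the gene table, 1 transcript held at least 90% of the TPM for 17 of the 33 genes with counts, and the leading transcript was the same in the table made from the reads for 29 of the 33. Transcripts not annotated as protein-coding held 2.42%, 0.842% and 1.88% of the counts of these genes in replicates 1, 2 and 3, and retained-intron transcripts 0.746%, 0.246% and 0.239%. Replicate 1 was highest in both, as it was for Malat1 and Neat1 (924, 212 and 152 protein-coding CPM), and the part of nuclear RNA in this was not tested.

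For 4 genes the leading transcript held under 60% in the gene table's transcripts or differed between the tables: Idh3a, Suclg2, Fh1 and Pcx. In the table made from the reads the leader also held under 60% for Sucla2 (47.5%), Mdh1 (51.9%), Dlat (46.5%) and Pdk1 (34.02%). For Idh3a a retained-intron transcript, Idh3a-203, led in the gene table's transcripts with 41.5%. Idh3a-204, annotated as a target of nonsense-mediated decay, led in the table made from the reads with 49.8%. In replicate 3 Idh3a-203 led in both tables with 41.0%, and Idh3a-204 held 25.8% in the table made from the reads. The transcript Idh3a-204 had no count in replicates 1 and 3 in the first table and 97 in replicate 2. Summed over the libraries, the protein-coding transcripts Idh3a-201 and Idh3a-205 led in neither table, though in replicate 2 of the first Idh3a-205 held 37.6% and Idh3a-203 33.5%. For Suclg2 the protein-coding Suclg2-204 and Suclg2-201 led with 59.2% and 45.5%. For Fh1 the full-length Fh1-201 led with 54.8% in the first table. In the other it was nearly level with the 542-base Fh1-205, at 42.7% and 42.9%. Fh1-205 led there in replicates 1 and 2, and Fh1-201 in replicate 3, with 55.5% to 41.3%. In the first table Fh1-205 reached 44.1% of the TPM from 95, 23 and 58 of the gene's counts, since a short transcript needs few reads for a high TPM. For Pcx, Pcx-201 led with 64.4% over the libraries, but it held 86.2%, 0% and 100% in replicates 1, 2 and 3, and Pcx-204 held 100% in replicate 2. In the other table the noncoding Pcx-203 led with 74.1%, which rested on 18 estimated counts in replicate 1.

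The transcripts of Mdh1 moved with its TPM. The 549-base Mdh1-202 held 17.7%, 48.4% and 10.7% of the gene's TPM in replicates 1, 2 and 3, from 151, 239 and 76 counts, and its share was highest in the library where Mdh1 itself was highest in TPM. For Sdhc the 815-base Sdhc-201 held 57.7%, 79.3% and 58.9%, again highest in replicate 2. For Mdh2 the protein-coding Mdh2-201 held 71.4%, 92.3% and 65.4% in replicates 1, 2 and 3. Mdh2-203, annotated as a target of nonsense-mediated decay, held 27.4%, 6.99% and 34.4%. In the table made from the reads Mdh2-201 held 87.1%, 89.8% and 79.6%. The part of these shares in the difference between Mdh1 and Mdh2 was not tested.

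**Figure D5:**
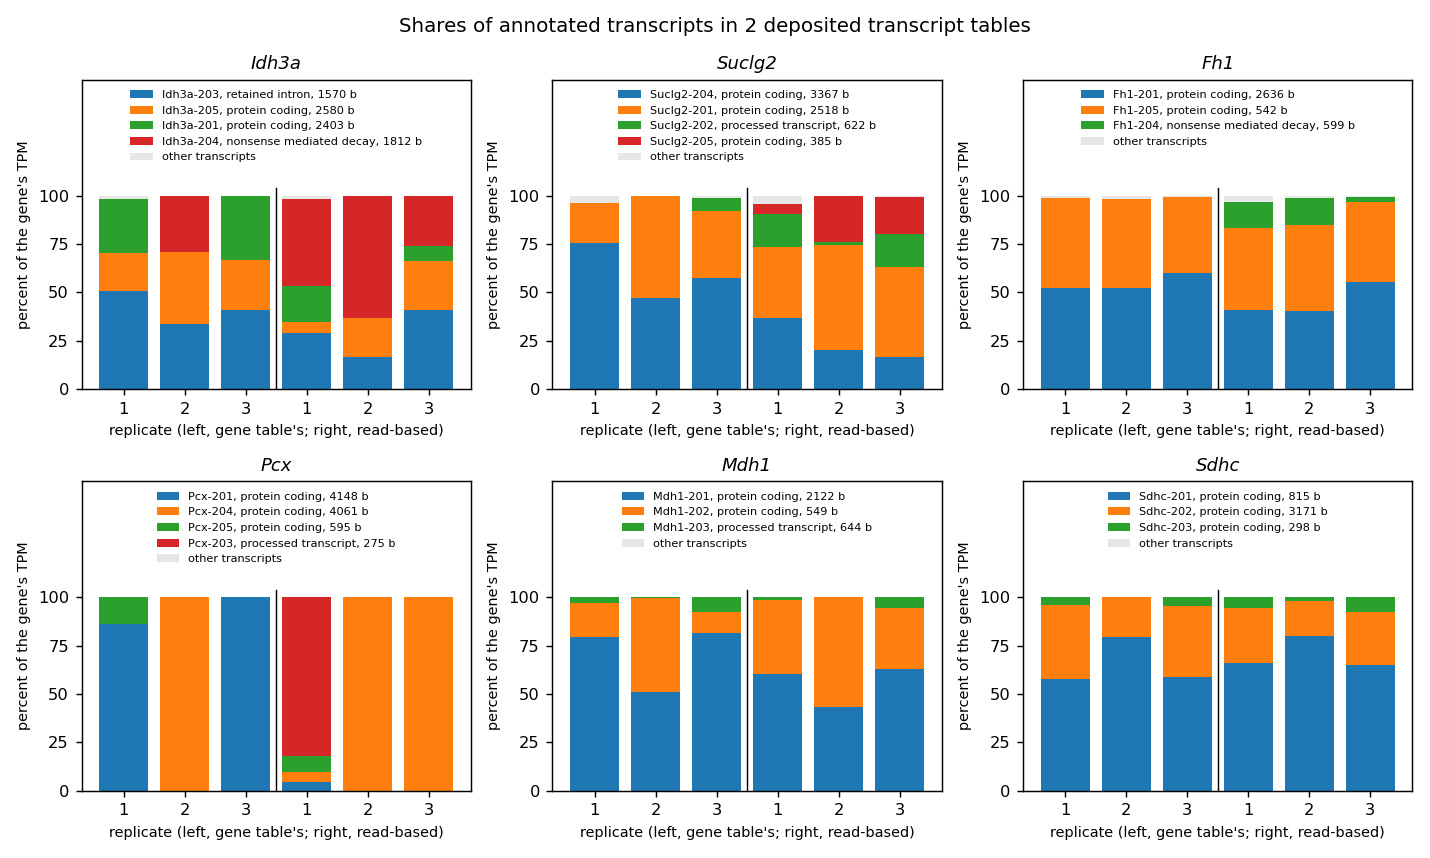
Share of each annotated transcript in the TPM of 6 genes, per library, in the gene table's transcripts (left of the line) and in the transcripts made from the reads (right of it); legends give biotype and length in bases. The tables give Idh3a different leading transcripts in replicates 1 and 2 and the same one in replicate 3. Mdh1-202 and Sdhc-201 take their largest share in replicate 2.

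Once both deposited tables were rescaled to nuclear protein-coding genes, the median difference over the 34 genes was 0.03 ± 0.01 in log2(TPM + 1) (SD, n = 3). Acod1 differed by 0.01 ± 0.02. Pdk1 differed by -0.59 ± 0.03, Suclg2 by -0.48 ± 0.03, Sdhc by -0.17 ± 0.07 and Mdh1 by -0.17 ± 0.06, each lower in the gene table. Dlat differed by -0.43 ± 0.40, Fh1 by -0.20 ± 0.15 and Pcx by -0.71 ± 1.24, the last with 0.979 and 7.75 rescaled TPM in replicate 1. These 7 were picked out after their values were seen. Without the rescaling, Pdk3 was above Pdk1 by 0.19 in the table made from the reads, in place of 0.81.

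Annotated genes on the opposite strand overlap 11 of the 34 genes. Whether counting used strand is not given in the sources used here. Reads from bases that transcripts of both partners share therefore cannot be told apart. The partner was protein-coding for 7 of the 11 genes, among which are Idh3b (Nop56), Fh1 (Kmo), Mdh1 (Wdpcp), Pdha1 (Map3k15), Pcx (Lrfn4) and Slc25a11 (Rnf167). The partner with the most counts was Nop56, with 2095, 758 and 1146.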

How the data were processed

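Ribosomal RNA-depleted total RNA of the cytosolic fraction was measured in 3 libraries of 1 group. Per the file headers, each deposited gene table holds the authors' expected counts (not normalized), their TPM and FPKM (both scaled within the library), effective lengths and bounds of TPM; 1 deposited transcript table has the same units and another has the authors' estimated counts and TPM. Per the deposited description files, the gene table and its transcript table came from reads aligned to transcripts and the other table from the unaligned reads, with build mm10 and GENCODE M21. Aligner, counting program and strand setting: not given in the sources used here. Counts that are not whole are shared between similar transcripts.

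Of 81881 identifiers, 55536 matched GENCODE M21; the other 26345, not genes, held 0.194%, 0.247% and 0.0227% of the counts and were left out. Protein-coding CPM is a gene's count per 1000000 counts on protein-coding genes of the nuclear genome. Differences between genes are within a library in log2(TPM + 1), with exact sign-flip permutation tests and Benjamini-Hochberg adjustment over 22, 1 of which is not reported here. Library ratios used an offset of 0.1. A count of 0 allows 3 counts (0.0540, 0.141 and 0.0657 CPM in replicates 1, 2 and 3). Dispersion came from edgeR 4.0.16 in R 4.3.3 (intercept only, TMM factors, expected counts rounded to whole numbers); DESeq2 1.42.0 served as an alternative. The remaining steps ran in Python 3.11.15 with pandas 2.3.3, scipy 1.17.1 and blastn 2.17.0. The dispersion estimate and the sign-flip test were tested on simulated data. A simulated coefficient of 0.6 in 200 genes was estimated at 0.379 at the median. Simulated coefficients that varied around 0.2 in 12026 genes were estimated at 0.232 at the median. Wide spreads are therefore drawn toward that of all genes.

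The 34 genes, the related list, the markers and the differences were chosen with earlier results of these data known. By rule, each library's TPM is given for the 5 highest and 3 lowest members and for genes of a difference, protein-coding CPM for the 3 with the largest range, and from the related list the 4 highest and those in a difference; transcripts are named where the leading one holds under 60% of the TPM in the gene table's transcript table or differs between tables.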

Additional observations from a re-analysis of the deposited data

How the results depend on the processing

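Alternatives were another pseudocount (0.1), FPKM, the transcript table made from the reads and counts over 1 fixed transcript length (chosen after seeing the data). Each library was also left out in turn. In all 154 of these the 22 differences between genes kept their direction, but many could not have turned. A difference with the same sign in every library keeps it when a library is left out. FPKM and the pseudocount keep the order of 2 genes within a library. For such differences between 2 genes only the reads table and the fixed length could change the direction. The 22 differences moved by over 1.5 times in few cases. The TPM of the reads table was not rescaled for these differences and had a lower median level, so the added 1 weighed more there. With the reads table Mdh1 minus Mdh2 was -0.29, Pcx minus Pdha1 -2.71, Pdk1 minus Pdk2 0.60, Pdk3 minus Pdk1 0.19, and kinases minus phosphatases -0.54; with a fixed length Idh2 minus Idh3a was 0.71 and Pdha1 minus Pdhb -0.01; with the other pseudocount Pdk4 minus Pdk1 was -4.67. Without replicates 1 and 2 in turn Pdk1 minus Pdk2 was 0.16 and 0.41. The median level of 23.4 TPM was 67.2 after rescaling to nuclear protein-coding genes and 10.8 in the reads table. Against the other libraries, the median of replicate 1 (0.07) was -0.041 with TMM and -0.080 with DESeq2 size factors, and that of replicate 3 (-0.08) was 0.014 and 0.044, so these signs depend on the scaling, which moved the median of all genes from 0.095 to -0.018 and -0.056 in replicate 1 and from -0.091 to 0.0038 and 0.034 in replicate 3. Genes past 1.5-fold in replicate 1 were 1 with TMM, 1 with DESeq2 and 3 against replicate 2 alone, in place of 0. In replicate 2 they were 1 with DESeq2, 1 with an offset of 1 and 0 past 2-fold, in place of 2, and in replicate 3 they were 0 past 2-fold, 0 against replicate 1 alone and 2 against replicate 2 alone, in place of 1. At least 1 TPM in every library held for 30 genes in the reads table, and at least 5 TPM for 27 genes. Mean TPM of single genes moved by more than 1 SD for 33 of 34 after the rescaling, which multiplies every gene of a library. It did so for 34 of 34 in the reads table and in 0 of 102 values with a library left out. In the reads table nuclear protein-coding genes held 20.5%, 21.4% and 7.95% of TPM in replicates 1, 2 and 3, and the cause of the move was not tested. Depth limits Pcx and Pdk4 most, and replicate 2 among the libraries.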
